A study of Rattus norvegicus with 6 samples.

Results

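The eukaryotic translation initiation factors are the proteins that bring a ribosome to the start codon of an mRNA. Their genes were taken as every row of the count files whose symbol begins with Eif and a digit from 1 to 6, which gave 53 of 18237 rows. The rule rests on the name alone, so it also takes in the kinases that phosphorylate eIF2, the eIF4E-binding proteins and eIF4A3, which works in the exon junction complex. Of the 53 genes, 52 passed the filter on low counts; the other was Eif4e1b, an eIF4E paralog, with 4 counts in siMt2 replicate 1 and 0 in the other libraries. Together the 53 genes held 1.25% of all counts.

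Gene counts came from RNA-seq of 6 libraries of cultured rat cells labelled NRVM, which commonly stands for neonatal rat ventricular myocytes; the protocol gives embryonic myocardium as their source. One group of 3 libraries was labelled siMt2, read here as an siRNA against the metallothionein gene Mt2a. The sample titles give only this short name. The other group of 3 was labelled siNT, a control siRNA. Serum-containing medium was common to both groups. The shared protocol also mentions dexamethasone, insulin and isobutylmethylxanthine, and leaves unclear whether these cultures were given them. The series belongs to a project on the eIF3 subunit eIF3m in nitrative damage after ischemia and reperfusion of the heart. Whether the replicates are separate cultures is not in the labels, so the p-values cover the spread among these 6 libraries, which may be technical.

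Library totals lay between 2859759 and 6817777 counts. Mt2a, the targeted gene, stood at 70.7, 87.3 and 142 CPM in the libraries labelled siMt2, against 90.7, 169.9 and 93.3 CPM in those labelled siNT (log2 fold change -0.28, SE 0.42, edgeR adjusted p = 0.631). CPM is a library-scaled count, here with TMM factors. The Mt2a transcript was therefore not measurably lower, though the wide interval also covers a fall, and the groups are called by their labels. Of 8 heart muscle markers, 7 were in the files and only Tnnt2 passed the filter. Tnnt2 rose (log2 fold change 1.01) and carried most of the list's sum of 51.3 to 63.7 CPM in siMt2 and 29.0 to 32.2 CPM in siNT libraries, while Myh6, Actc1, Tnni3 and Mybpc3 summed to at most 9 counts each over all libraries. The defining heart muscle transcripts were thus near 0 in cells labelled as cardiac, but a level near 0 in these files need not mean an absent transcript: Rps6, a ribosomal protein gene that every cell uses, had only 4 counts over all 6 libraries. Marker lists of other cells moved with the groups, where 25.8% of all genes tested were called higher and 25.1% lower. Of the smooth muscle markers, 5 of 5 were called higher. Their summed levels were 4309 to 4393 CPM in siMt2 and 2041 to 2099 CPM in siNT libraries. Of the fibroblast markers, 5 of 7 tested were called higher. Their summed levels were 9881 to 13855 CPM in siMt2 and 7600 to 7755 CPM in siNT libraries. Col1a2 and Col3a1 were not called. Dcn, called higher, had 50 counts in all, and Pdgfra had 2 counts in all. The leukocyte markers summed to 13.6 to 17.3 CPM in siMt2 and 21.8 to 26.1 CPM in siNT libraries, where Cd14 was the 1 marker tested and was called lower, and of 4 endothelial markers only Tie1 was in the files, with 3 counts in all. In bulk RNA a change in the mix of cells and a change in RNA per cell cannot be told apart, and the part of these cells in the results below was not tested.

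Initiation runs in steps. The small ribosomal subunit is loaded with eIF1, eIF1A, eIF3 and eIF5, and eIF2 with GTP brings the initiator tRNA. The eIF4 factors bind the cap and unwind the leader of the mRNA, and eIF5B joins the large subunit once the start codon is found. After each round eIF2B reloads eIF2 with GTP, and phosphorylation of eIF2 by stress-activated kinases blocks that step.

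Initiation factor genes went both ways, within 6 of the 10 classes by complex or function. By edgeR's quasi-likelihood test, with p-values adjusted by Benjamini-Hochberg across the 11726 genes tested (threshold 0.05), 17 of the 52 genes were called higher and 18 lower in siMt2-labelled libraries. That is 67.3% called, where 50.9% of all genes tested were called; by direction the members gave 32.7% higher and 34.6% lower, and all genes 25.8% higher and 25.1% lower. The members also stood at a higher level, with a median of 138 CPM, against 33.6 CPM for all genes tested. Whether level bears on the share called was not tested. Changes were small. The log2 fold changes ran from -0.94 (Eif3c) to 0.88 (Eif4e3) with a median of 0.0049, and the median size was 0.26, against 0.33 over all genes. No member was called with a change beyond 1 on the log2 scale, a size that 8.96% of all genes tested reached. The groups did not overlap for 67.3% of the members, 17 genes higher and 18 lower, against 57.6% of all genes, 28.9% higher and 28.7% lower.

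**Figure D1:**
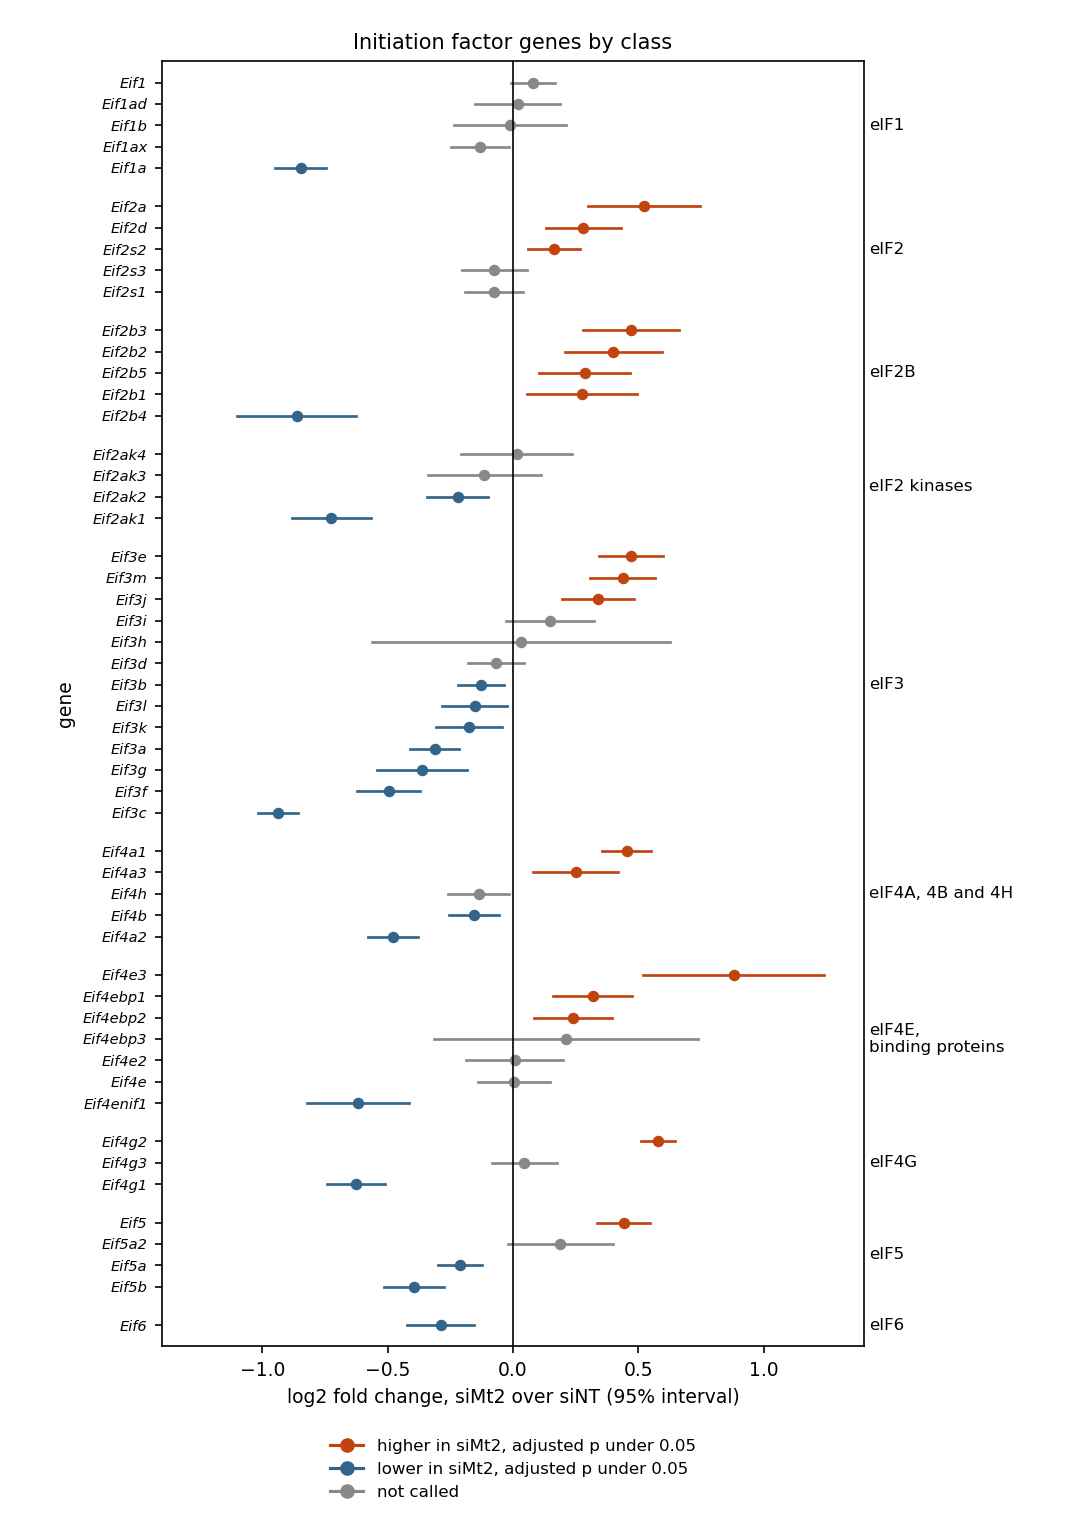
Log2 fold change (siMt2 over siNT, x axis) of the 52 tested genes, grouped by complex, with 95% intervals of the edgeR fit; colours show the call. Red points (17 genes) and blue points (18 genes) occur side by side within eIF2B, eIF3, eIF4A, eIF4E, eIF4G and eIF5, and no point passes 1 in either direction.

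The eIF3 complex, the scaffold that holds the small subunit, the mRNA and the other factors together, has an octamer of 6 PCI-domain subunits (a, c, e, k, l and m) and 2 MPN-domain subunits (f and h). Subunits b, d, g, i and j attach outside it. Of the 13 genes, 3 rose (23.1%) and 7 fell (53.8%), 76.9% called. Over all genes tested, 50.9% were called, 25.8% higher and 25.1% lower. The counts by place were 2 higher and 4 lower among the PCI subunits, 0 higher and 1 lower among the MPN subunits, and 1 higher and 2 lower outside the octamer. The median log2 fold change was -0.16 over the 8 octamer genes and -0.067 over the 5 others; no difference between these places was tested.

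Eif3m, the PCI subunit named in the series' title, stood at 183, 184 and 214 CPM in the libraries labelled siMt2, against 142, 141 and 142 CPM in those labelled siNT. All 3 siMt2 values lay above all siNT values, with siMt2 replicate 3 the highest. The siMt2 libraries averaged 193 ± 17.7 CPM and the siNT libraries 142 ± 0.551 CPM (SD, n = 3 each). The fitted log2 fold change was 0.44 (SE 0.06, 95% interval 0.31 to 0.57, edgeR adjusted p = 6.80e-06).

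Eif3e, a PCI subunit that contacts eIF4G, had 191, 175 and 200.4 CPM in siMt2 libraries, against 143, 133 and 132 CPM in siNT libraries. It rose by a similar amount to Eif3m (log2 fold change 0.47, SE 0.06, edgeR adjusted p = 2.29e-06), and the groups did not overlap. The count ratio of Eif3m to Eif3e was 0.959, 1.05 and 1.07 in the siMt2 libraries and 0.989, 1.06 and 1.08 in the siNT libraries, ranges that overlap almost entirely.

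Eif3c, which in yeast binds eIF1 and eIF5, went furthest in the other direction. Its level was 655, 644 and 688 CPM in siMt2 libraries, against 1276, 1270.1 and 1256 CPM in siNT libraries. Libraries of both groups were tightly spaced, at 662 ± 23.1 CPM in siMt2 and 1267 ± 10.4 CPM in siNT (SD, n = 3 each). The fitted difference was -0.94 on the log2 scale (SE 0.04, edgeR adjusted p = 9.19e-14, 95% interval -1.02 to -0.86), which is 0.522 times the siNT level.

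The ratio of Eif3m to Eif3c counts within a library does not depend on how libraries are scaled. It was 0.279, 0.285 and 0.311 in the libraries labelled siMt2, against 0.111, 0.111 and 0.113 in those labelled siNT. The groups lay far apart relative to their spread, with a difference of 1.38 on the log2 scale (2.61-fold). Over the 20 assignments of libraries to groups, an exact permutation test (two-sided) gave p = 0.1, the smallest that 3 against 3 libraries allow. The pair was chosen with earlier results of these data known.

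The remaining PCI subunits fell. Eif3a, the largest subunit, stood at 803, 781 and 885 CPM in siMt2 libraries, against 975, 1022 and 1063 CPM in siNT libraries (log2 fold change -0.31, SE 0.05, edgeR adjusted p = 1.27e-05). Eif3k had 103, 108 and 111 CPM in siMt2 and 117, 122 and 123 CPM in siNT libraries (log2 fold change -0.18, SE 0.06, edgeR adjusted p = 0.0258). Eif3l, its neighbour in the complex, had 125, 122 and 122 CPM in siMt2 and 143, 140.1 and 129 CPM in siNT libraries (log2 fold change -0.15, SE 0.06, edgeR adjusted p = 0.0472). The groups did not overlap for any of these genes, but the Eif3k and Eif3l calls were weak. Eif3k missed the threshold without siMt2 replicate 1 (adjusted p = 0.144), siMt2 replicate 2 (0.0567), siNT replicate 2 (0.0573) or siNT replicate 3 (0.0961). Eif3l missed it without siMt2 replicate 1 (0.0830), siMt2 replicate 2 (0.123), siMt2 replicate 3 (0.0517), siNT replicate 1 (0.157) or siNT replicate 2 (0.112). Neither passed under DESeq2 (adjusted p = 0.0997 for Eif3k and 0.140 for Eif3l) or upper quartile scaling (0.0730 for Eif3k and 0.131 for Eif3l), and Eif3l also missed under limma-voom (0.0652) and a stricter filter (0.0572).

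Of the MPN subunits, Eif3f fell and Eif3h could not be placed. Eif3f had 146, 139 and 157 CPM in siMt2 libraries, against 203, 221 and 198 CPM in siNT libraries (log2 fold change -0.50, SE 0.06, edgeR adjusted p = 9.01e-07). Eif3h, its partner in the octamer, had 107, 75.0 and 60.9 CPM in siMt2 libraries, against 72.1, 88.9 and 85.4 CPM in siNT libraries. The siMt2 values of Eif3h lay on both sides of the siNT values, with a coefficient of variation of 29.2%, the highest of the 52 members in either group, where the members' median was 6.04% in siMt2 and 4.54% in siNT libraries. Its log2 fold change was 0.033 (SE 0.23, 95% interval -0.56 to 0.63, edgeR adjusted p = 0.920). Changes within that interval could not be told apart. Without siMt2 replicate 1 the log2 fold change was -0.25 (adjusted p = 0.0837), and without siMt2 replicate 3 it was 0.18.

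Outside the octamer, Eif3j, a loosely held subunit that binds near the decoding site, rose. It had 126, 133 and 144 CPM in siMt2 and 108, 97.3 and 109.9 CPM in siNT libraries (log2 fold change 0.34, SE 0.07, edgeR adjusted p = 0.000342). Eif3g, an RNA-binding subunit, fell and had 62.5, 60.8 and 67.6 CPM in siMt2 and 73.9, 84.8 and 85.7 CPM in siNT libraries (log2 fold change -0.36, SE 0.09, edgeR adjusted p = 0.00138). Neither gene's groups overlapped.

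Eif3b, the scaffold of the peripheral subunits, had 332, 334 and 338 CPM in siMt2 and 359, 362 and 375 CPM in siNT libraries. The groups were separate but close, with a log2 fold change of -0.13 (SE 0.04, edgeR adjusted p = 0.0208). This call was lost without siMt2 replicate 1 (adjusted p = 0.0798), siMt2 replicate 2 (0.0503) or siNT replicate 3 (0.0971), and under DESeq2 (0.0654) or upper quartile scaling (0.0864).

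The other peripheral genes were not called. Eif3d, the subunit that can bind the cap, had 219, 228 and 239.8 CPM in siMt2 and 251, 229.9 and 235 CPM in siNT libraries (log2 fold change -0.067, 95% interval -0.18 to 0.045). Eif3i, a WD-repeat subunit beside eIF3b and eIF3g, had 78.5, 81.8 and 85.6 CPM in siMt2 and 68.1, 82.0 and 71.7 CPM in siNT libraries (0.15, 95% interval -0.026 to 0.32). Both sets of values overlapped between the groups.

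**Figure D2:**
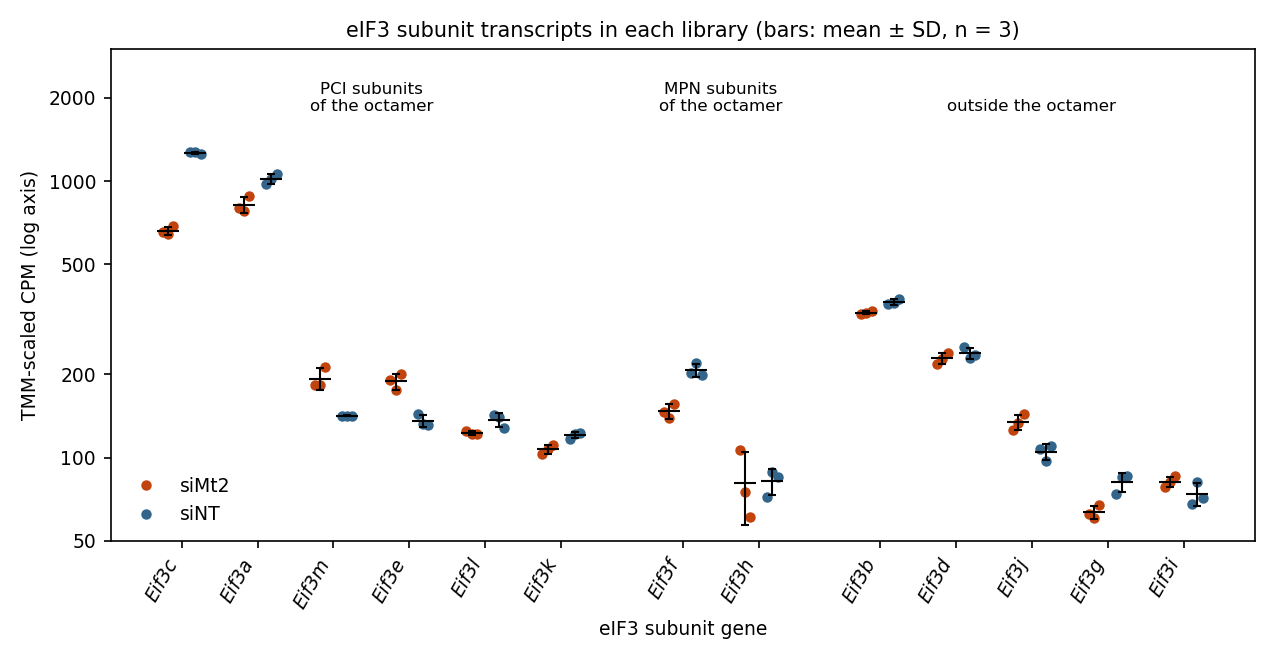
TMM-scaled CPM (log axis) of the 13 eIF3 subunit genes in each library labelled siMt2 (left of each pair) and siNT (right), with mean and SD of 3 libraries, arranged by place in the complex. Eif3c falls furthest, Eif3m and Eif3e rise among the PCI subunits, and the 3 siMt2 points of Eif3h spread from 60.9 to 107.

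Summed over the 13 genes, eIF3 reads made up 3130, 3065 and 3313 CPM in siMt2 libraries, against 3931, 3993 and 4005 CPM in siNT libraries. The sum in siMt2 libraries was 0.797 times that in siNT libraries. Without Eif3c the sums were 2475, 2422 and 2625 CPM in siMt2 and 2655, 2723 and 2750 CPM in siNT libraries, a ratio of 0.925. Most of the gap thus lay in Eif3c. Reads are not scaled by transcript length, so these sums weight long transcripts more.

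Promoter windows of Eif3m and Eif3c are shown because these genes of the same complex moved in opposite directions. They are the 250 bases before the RefSeq gene start in assembly GRCr8, 5′ to 3′ on the gene's strand. Capitals mark exact matches of 4 motifs, searched on either strand. These are the ETS-type string CCGGAAG, the E-box CACGTG, the CCAAT box CCAAT and the TATA box TATAAA. The first window is chr3:111897194-111897443 and the other chr1:190583068-190583317, both on the minus strand.
Eif3m: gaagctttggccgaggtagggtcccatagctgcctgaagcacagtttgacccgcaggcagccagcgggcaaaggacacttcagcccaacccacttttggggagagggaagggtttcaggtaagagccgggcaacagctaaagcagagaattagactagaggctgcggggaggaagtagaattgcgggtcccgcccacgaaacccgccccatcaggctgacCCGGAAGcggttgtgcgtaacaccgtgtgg
Eif3c: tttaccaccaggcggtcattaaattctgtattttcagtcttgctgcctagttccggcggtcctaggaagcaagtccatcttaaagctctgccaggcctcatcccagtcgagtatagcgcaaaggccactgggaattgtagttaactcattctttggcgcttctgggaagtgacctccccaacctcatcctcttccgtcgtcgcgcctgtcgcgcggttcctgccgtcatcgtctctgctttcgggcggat
The Eif3m window holds 1 ETS-type string, whose first base lies 30 bases before the start. The Eif3c window holds no exact match of the 4 motifs. It does hold GGAA, the inner part of the ETS-type string, and other forms of these motifs were not searched.

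Across the set, 48 of 53 members matched a promoter in the RefSeq table. Those without a window were Eif3e, Eif4e3 and Eif4ebp1, called higher, Eif4b, called lower, and Eif3h, not called. The ETS-type string was in the windows of 19 of 48 members (39.6%). It was in 16.6% of 8574 tested genes with a window and in 7.27% of all 33469 windows. By direction it was in 6 of 14 genes called higher, 6 of 17 called lower and 7 of 16 not called; Eif4e1b, not tested, is left out of this split. The E-box was in 8 of 48 windows (16.7%), against 8.92% of tested genes and 5.59% of all windows, and fell in 0 of 14 called higher, 4 of 17 called lower (Eif3b, Eif3f, Eif4g1 and Eif5a) and 4 of 16 not called. CCAAT was in 31.3% of member windows and 37.6% of tested genes, and TATAAA in 4.17% and 6.68%; over all windows these shares were 34.0% and 12.9%. These are matches of letters, and none of the shares was tested.

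Of the 5 genes of the eIF1 class, 1 was called, Eif1a, which fell, where 50.9% of all genes tested were called. eIF1 guards start codon choice, and eIF1A keeps the subunit open for scanning. Eif1a had 209, 217 and 218 CPM in siMt2 libraries, against 377, 376 and 403 CPM in siNT libraries. The groups were far apart (log2 fold change -0.85, SE 0.05, edgeR adjusted p = 1.74e-11), at 0.556 times the siNT level.

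Its paralog Eif1ax had 280.1, 264 and 241 CPM in siMt2 and 292, 275 and 296 CPM in siNT libraries (log2 fold change -0.13, SE 0.06, edgeR adjusted p = 0.0546). The groups overlapped, and Eif1ax passed without siMt2 replicate 1 (adjusted p = 0.0221) or siNT replicate 2 (0.0441). It also passed without a filter on low counts (0.0157) and with replicate number as a block (0.0458). The count ratio of Eif1a to Eif1ax was 0.748, 0.822 and 0.906 in siMt2 and 1.29, 1.37 and 1.36 in siNT libraries. These genes are close copies, and reads that match both cannot be assigned with certainty.

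Eif1, the start codon factor itself, had 491, 459 and 486 CPM in siMt2 and 452, 453 and 453 CPM in siNT libraries. These groups did not overlap, but the difference was small (log2 fold change 0.080, SE 0.04) and not called (edgeR adjusted p = 0.128); under upper quartile scaling it passed (adjusted p = 0.0219). The paralog Eif1b and the related Eif1ad had log2 fold changes of -0.012 and 0.019 and were not called.

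The subunits of eIF2, which carries the initiator tRNA, changed little. Eif2s2, the beta subunit, had 291, 282 and 299 CPM in siMt2 and 247, 265 and 266 CPM in siNT libraries (log2 fold change 0.16, SE 0.05, edgeR adjusted p = 0.00956). Its groups were separate, but without siNT replicate 1 the call was lost (adjusted p = 0.0697). Eif2s1, the alpha subunit that the stress kinases phosphorylate, and Eif2s3, the gamma subunit that binds GTP, had log2 fold changes of -0.075 (95% interval -0.19 to 0.042) and -0.074 (-0.20 to 0.056) and were not called.

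The other genes with eIF2 names encode factors outside that complex. Eif2a, whose product can deliver initiator tRNA without eIF2, rose and had 43.6, 44.2 and 46.1 CPM in siMt2 and 29.1, 34.7 and 29.7 CPM in siNT libraries (log2 fold change 0.52, SE 0.11, edgeR adjusted p = 0.000387). Eif2d, a tRNA delivery and recycling factor, rose as well, with 97.2, 91.3 and 98.2 CPM in siMt2 and 79.8, 79.1 and 77.2 CPM in siNT libraries (0.28, SE 0.07, edgeR adjusted p = 0.00276). Both were separate between the groups.

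All 5 genes of eIF2B were called, 4 higher and 1 lower, where 50.9% of all genes tested were called. Eif2b4, the delta subunit, had 32.4, 25.8 and 25.4 CPM in siMt2 libraries, against 48.8, 55.2 and 51.8 CPM in siNT libraries (log2 fold change -0.86, SE 0.11, edgeR adjusted p = 2.73e-06). Every siMt2 value lay below every siNT value. Eif2b3, the gamma subunit, had 88.0, 99.3 and 118 CPM in siMt2 and 69.7, 76.5 and 71.0 CPM in siNT libraries (0.47, SE 0.09, edgeR adjusted p = 0.000249). Eif2b2, the beta subunit, had 62.6, 65.0 and 59.5 CPM in siMt2 and 48.0, 50.4 and 44.3 CPM in siNT libraries (0.40, SE 0.09, edgeR adjusted p = 0.00118).

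Eif2b5, the catalytic epsilon subunit, also rose (log2 fold change 0.29, SE 0.09, edgeR adjusted p = 0.00932). The count ratio of Eif2b4 to Eif2b5 was 0.498, 0.404 and 0.409 in siMt2 libraries, against 0.964, 1.02 and 0.985 in siNT libraries. Eif2b1, the alpha subunit, rose in the fit with overlapping groups (0.27, SE 0.10, edgeR adjusted p = 0.0341). Its call was lost without siMt2 replicate 1 (adjusted p = 0.124), siMt2 replicate 2 (0.110), siNT replicate 2 (0.173, where the log2 fold change was 0.19) or siNT replicate 3 (0.0599), and under DESeq2 (0.0893).

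Of the 4 kinases of eIF2, 2 fell and 0 rose, where 25.1% of all genes tested were called lower and 25.8% higher. Eif2ak1, the heme-regulated kinase HRI, had 82.6, 77.1 and 98.6 CPM in siMt2 libraries, against 138, 144 and 140.2 CPM in siNT libraries (log2 fold change -0.72, SE 0.08, edgeR adjusted p = 1.09e-07). Eif2ak2, the double-stranded RNA kinase PKR, had 184, 175 and 206 CPM in siMt2 and 218, 217 and 219.8 CPM in siNT libraries (-0.22, SE 0.06, edgeR adjusted p = 0.00333). Both were lower in every siMt2 library than in any siNT library. Eif2ak3, the endoplasmic reticulum stress kinase PERK, had 43.1, 37.6 and 44.7 CPM in siMt2 and 49.3, 45.6 and 40.9 CPM in siNT libraries and was not called (-0.12, 95% interval -0.34 to 0.11). Eif2ak4, the amino acid sensor GCN2, was not called either (0.015, 95% interval -0.21 to 0.24).

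A list of integrated stress response outputs, the genes known to respond when eIF2 is phosphorylated, was compared alongside; it also holds Ppp1r15b, the constitutive partner of the eIF2 phosphatase, which rose (log2 fold change 0.55, SE 0.05). Of 15 tested, 9 rose and 3 fell, where 25.8% of all genes tested were called higher and 25.1% lower. The list's median log2 fold change was 0.16, against 4.90e-04 over all genes. Ddit3, which encodes the transcription factor CHOP, had 139 ± 8.95 CPM in siMt2 and 44.6 ± 2.36 CPM in siNT libraries (SD, n = 3 each; log2 fold change 1.63, SE 0.08). Ppp1r15a, the inducible partner of the eIF2 phosphatase, stood at 214 ± 5.35 CPM in siMt2 and 98.1 ± 3.41 CPM in siNT libraries (1.12, SE 0.06). The cystine transporter gene Slc7a11 rose too (0.82, SE 0.05), while Chac1, Asns and Atf3 fell (-1.10, -0.24 and -0.54). Atf4, whose translation rises when eIF2 is phosphorylated, changed little in RNA (0.11, SE 0.04, edgeR adjusted p = 0.0316, the highest of the 12 called). The list thus held changes in both directions.

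The eIF4A helicases, which unwind the mRNA leader, moved in opposite directions. Eif4a1 had 454, 435 and 483 CPM in siMt2 libraries, against 327, 329.8 and 343 CPM in siNT libraries (log2 fold change 0.45, SE 0.05, edgeR adjusted p = 1.23e-07). Eif4a2, its close paralog, had 421, 411 and 471 CPM in siMt2 libraries, against 601, 611 and 598 CPM in siNT libraries (-0.48, SE 0.05, edgeR adjusted p = 6.83e-08). Neither gene's groups overlapped. The count ratio of Eif4a1 to Eif4a2 was 1.08, 1.06 and 1.03 in siMt2 libraries, against 0.543, 0.540 and 0.574 in siNT libraries, or 1.91 times higher on average; as the genes were picked after their values were seen, it was not tested. The genes share long stretches of sequence, and the sources used here do not say how reads that match both were counted.

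Their promoter windows, chr10:54888603-54888852 and chr11:91275324-91275573 (GRCr8, minus strand), are shown for the same reason as above and with the same capitals.
Eif4a1: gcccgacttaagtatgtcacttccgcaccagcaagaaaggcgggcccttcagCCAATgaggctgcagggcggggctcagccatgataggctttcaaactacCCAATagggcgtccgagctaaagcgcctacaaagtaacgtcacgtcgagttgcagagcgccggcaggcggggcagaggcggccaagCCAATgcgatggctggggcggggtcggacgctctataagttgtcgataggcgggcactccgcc
Eif4a2: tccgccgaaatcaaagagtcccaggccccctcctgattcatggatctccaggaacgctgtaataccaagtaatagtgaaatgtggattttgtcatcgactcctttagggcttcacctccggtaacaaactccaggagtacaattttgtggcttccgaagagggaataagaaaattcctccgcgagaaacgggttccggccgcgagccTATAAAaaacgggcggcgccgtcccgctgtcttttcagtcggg
The Eif4a1 window holds 3 CCAAT boxes, starting 198, 149 and 63 bases before the start. It also holds TATAAG near its end, which differs from the searched TATAAA only in the last letter. The Eif4a2 window holds 1 exact TATAAA, starting 43 bases before its start.

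Eif4b, a cofactor that stimulates the helicase, had 375, 362 and 399 CPM in siMt2 and 405, 437 and 420.4 CPM in siNT libraries (log2 fold change -0.15, SE 0.05, edgeR adjusted p = 0.0107). The gap between its groups was narrow, and the call was lost without siMt2 replicate 1 (adjusted p = 0.0516) or siMt2 replicate 2 (0.0656). Eif4h, a related cofactor, was not called (-0.14, SE 0.06, edgeR adjusted p = 0.0557) but passed without siMt2 replicate 1 (0.0170) or siNT replicate 3 (0.0401). It also passed without a filter on low counts (0.00515) and with replicate number as a block (0.0130). Eif4a3, the exon junction helicase, rose (0.25, SE 0.08, edgeR adjusted p = 0.0139), a call lost without siMt2 replicate 2 (0.0665) or siNT replicate 2 (0.0856).

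The scaffolds of the cap complex also split. Eif4g2, whose product DAP5 lacks the eIF4E-binding part and serves cap-independent and alternative initiation, had 2977, 2926 and 3016 CPM in siMt2 libraries, against 1969, 2005 and 2002 CPM in siNT libraries. Replicates lay within a few percent of each other (2973 ± 45.4 and 1992 ± 19.9 CPM, SD, n = 3 each), and the log2 fold change was 0.58 (SE 0.03, edgeR adjusted p = 1.38e-11). Eif4g1, the main scaffold between cap, helicase and eIF3, had 339, 329.9 and 287 CPM in siMt2 libraries, against 517, 481 and 486 CPM in siNT libraries (-0.63, SE 0.05, edgeR adjusted p = 1.25e-08). Eif4g3, the second full-length scaffold, had 154, 141 and 154 CPM in siMt2 and 148, 134 and 153 CPM in siNT libraries (0.046, 95% interval -0.086 to 0.18) and was not called.

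The count ratio of Eif4g2 to Eif4g1 was 8.78, 8.87 and 10.5 in siMt2 libraries, against 3.81, 4.17 and 4.12 in siNT libraries. This is 2.32 times higher in siMt2 libraries and was not tested. With Eif4g2 as their largest part, the summed eIF4G reads were higher in siMt2 libraries, at 3471, 3397 and 3457 CPM, against 2634, 2620 and 2641 CPM in siNT libraries.

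**Figure D3:**
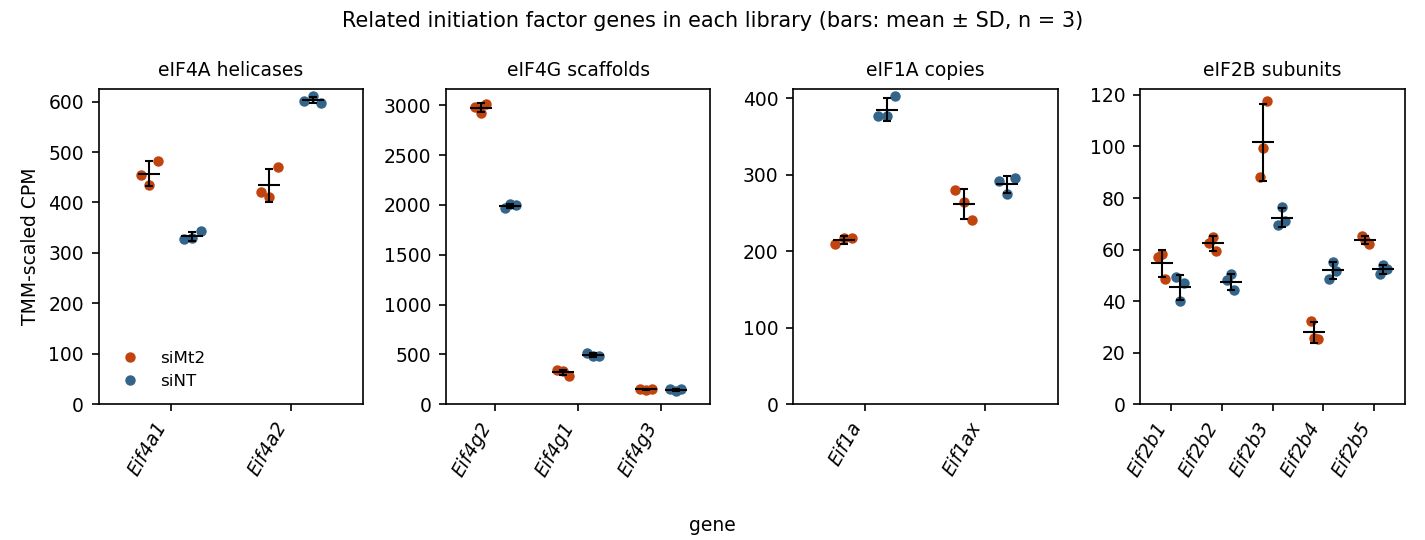
TMM-scaled CPM of related genes in each library labelled siMt2 (left of each pair) and siNT (right), with mean and SD of 3 libraries. Eif4a1 rises as Eif4a2 falls, Eif4g2 rises as Eif4g1 falls, Eif1a falls without a called change of Eif1ax, and Eif2b4 is the 1 eIF2B gene that is lower.

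The cap-binding protein itself did not differ measurably. Eif4e had a log2 fold change of 0.0032 (95% interval -0.14 to 0.15), and Eif4e2, a cap-binding repressor paralog, one of 0.0066 (-0.19 to 0.20). Eif4e3, a paralog with weaker cap binding, was the largest rise of the set at a low level, with 21.6, 18.4 and 17.3 CPM in siMt2 libraries, against 9.57, 9.80 and 11.96 CPM in siNT libraries (log2 fold change 0.88, SE 0.17, edgeR adjusted p = 0.000257). Its groups were separate.

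Among proteins that bind eIF4E, the inhibitor genes Eif4ebp1 and Eif4ebp2 were called higher, Eif4ebp3 was not called, and the shuttling factor gene Eif4enif1 was called lower. Eif4ebp1, an inhibitor that lets go of eIF4E when mTORC1 phosphorylates it, had 100.3, 102 and 91.2 CPM in siMt2 and 81.3, 73.9 and 81.1 CPM in siNT libraries (log2 fold change 0.32, SE 0.07, edgeR adjusted p = 0.00143). Eif4enif1, which carries eIF4E into the nucleus and processing bodies, had 44.96, 39.0 and 49.3 CPM in siMt2 and 66.5, 70.7 and 66.4 CPM in siNT libraries (-0.62, SE 0.10, edgeR adjusted p = 2.28e-05). No values overlapped between the groups for either gene. The Eif4ebp2 call (0.24, SE 0.07, edgeR adjusted p = 0.0115) was lost without siNT replicate 1 (0.0854), and Eif4ebp3, at 5.42 to 9.16 CPM, was not called (0.21, 95% interval -0.32 to 0.74).

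Of the 4 genes of the eIF5 class, 1 rose, 2 fell and 1 was not called, where 50.9% of all genes tested were called. Eif5, which makes eIF2 hydrolyse its GTP at the start codon, rose and had 251, 239 and 258 CPM in siMt2 libraries, against 182, 186 and 182 CPM in siNT libraries (log2 fold change 0.44, SE 0.05, edgeR adjusted p = 5.14e-07). Eif5b, the GTPase that joins the large subunit, had 129, 129 and 136 CPM in siMt2 and 175, 165 and 176 CPM in siNT libraries (-0.40, SE 0.06, edgeR adjusted p = 8.56e-06). Eif5a, the hypusine-bearing factor that acts mainly in elongation, had 423, 426 and 443 CPM in siMt2 and 487, 501 and 504 CPM in siNT libraries (-0.21, SE 0.04, edgeR adjusted p = 0.000317). The groups were separate for each of these genes. Eif5a2, a paralog of Eif5a, was not called (0.19, 95% interval -0.021 to 0.40).

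Eif6, which keeps the large subunit from joining too early, had 146, 134 and 137 CPM in siMt2 and 178, 178 and 156 CPM in siNT libraries. It was lower in all siMt2 libraries (log2 fold change -0.29, SE 0.06, edgeR adjusted p = 0.000835).

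**Figure D4:**
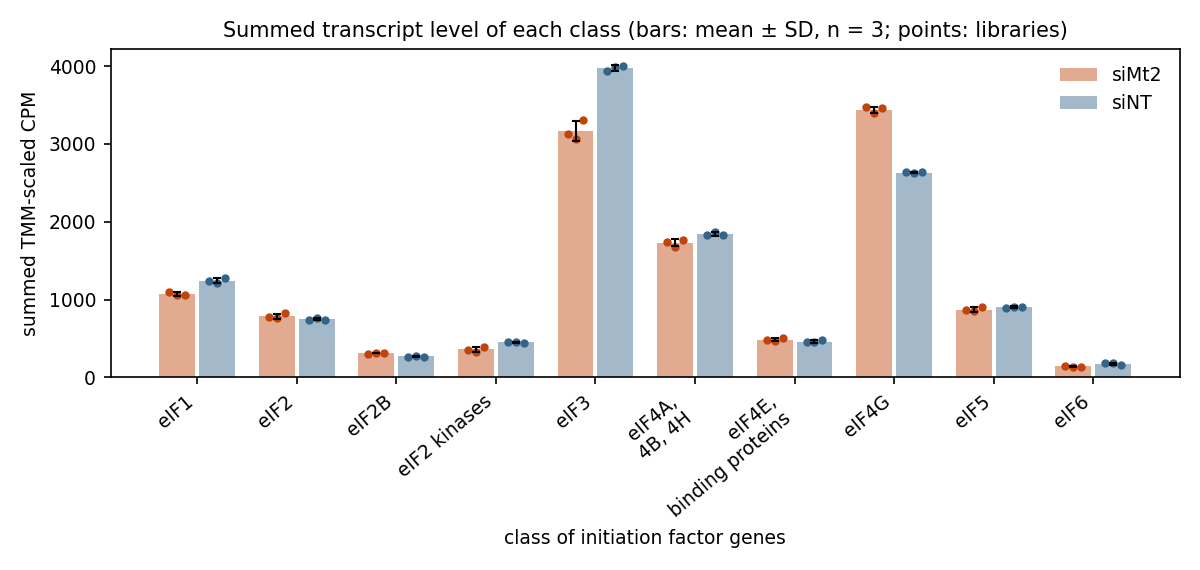
Summed TMM-scaled CPM of each class of initiation factor genes in libraries labelled siMt2 (left bars) and siNT (right bars); bars show the mean, lines the SD of 3 libraries and points the libraries. The eIF3 sum is lower in siMt2 (3169.5 CPM, against 3976 CPM in siNT) and the eIF4G sum higher (3442 CPM in siMt2, against 2632 CPM in siNT).

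Because rises and falls offset each other, the reads of all 53 genes together summed to 12366, 12050 and 12674 CPM in siMt2 libraries, against 12609, 12712 and 12741 CPM in siNT libraries. The values overlap, and the ratio of the means was 0.974.

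Lists of partner genes outside the name rule also held calls in both directions; over all genes tested, 25.8% were called higher and 25.1% lower. Of 15 cap and poly(A) partners tested, 2 rose and 8 fell, with Pabpc4 (log2 fold change -0.43, SE 0.05), the helicase gene Ddx3x (-0.26, SE 0.04) and Paip1, which links the poly(A)-binding protein to eIF4A (-0.32, SE 0.05), having the smallest adjusted p in edgeR, at most 7.01e-05. A further list held initiation and recycling factors together with other genes, and of its 11 tested, 3 rose and 1 fell. The rises were Pdap1, which encodes a PDGF-associated protein (0.76, SE 0.05), Denr, a recycling and reinitiation factor (0.40, SE 0.08), and the ribosome recycling gene Abce1 (0.14, SE 0.05). Elongation and termination factors gave 3 higher and 4 lower of 12, with Eef2, the translocase, at 3004 ± 88.9 CPM in siMt2 and 4340 ± 77.9 CPM in siNT libraries (SD, n = 3 each; log2 fold change -0.53, SE 0.03). Pelo, a ribosome rescue factor (-0.66, SE 0.11), and Eef1b2 (-0.26, SE 0.06) also fell. The mTORC1 and S6 kinase list gave 1 higher and 3 lower of 11; Tsc1 (-0.28, SE 0.07), Rheb (-0.30, SE 0.08) and Lamtor1 (-0.32, SE 0.09) fell, and Mtor itself was not called (-0.059, SE 0.10). The median log2 fold changes of these lists were -0.11, -0.015, 0.069 and -0.12 in the order given.

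Copies elsewhere in the genome limit these counts. In RefSeq's GRCr8 table, 28 of the 53 members have at least 1 named pseudogene, up to 11 for Eif5, 10 for Eif4e and 8 each for Eif1 and Eif4a1. The files hold 0 rows named as such Eif pseudogenes. Of the 6 deepest falls, Eif3c, Eif2b4, Eif2ak1 and Eif4enif1 have 0 named pseudogenes there, Eif1a has 1 and Eif4g1 has 3. Of the 6 largest rises, Eif4e3, Eif2a and Eif2b3 have 0, Eif4g2 and Eif3e have 2 each and Eif4a1 has 8. Eif3m has 1. The part of such copies in the results was not tested.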

How the data were processed

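RNA was harvested on Qiagen columns and libraries were prepared with a SMARTER kit, per the labels' protocols. The tools in the submitters' processing notes are featureCounts, HISAT2 2.2.1, Trimmomatic 0.40, DESeq2 and limma, and the build is rn6, without order or settings; strand and multiply mapped reads are not described. The authors deposited raw whole-number counts per gene, 1 file per library with the same 18237 rows. In 25 rows gene names had become dates; they held 0.250% to 0.278% of the counts and stayed in. Groups come from the sample titles.

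The tests ran in edgeR 4.0.16 under R 4.3.3: filterByExpr (minimum count 10), TMM, and the robust quasi-likelihood test on all 11726 genes kept, two-sided, with Benjamini-Hochberg adjustment. Log2 fold changes are siMt2 over siNT. A count of 3, the limit that a count of 0 allows, equals 0.440 to 1.05 CPM. The test was tried first on simulated counts in which 200 of 11726 genes were changed, a far smaller share than was called here. It recovered 53.7% of changes of 0.5 on the log2 scale, 86.6% of changes of 1 and 98.5% of changes of 2. Of its calls, 4.22% were false. A member that was not called may thus still have changed by a small amount. DESeq2 1.42.0, limma-voom (limma 3.58.1), other scalings and filters, a replicate block and each library left out were alternatives. The members, gene lists, the naming rule (all eIF3 subunits, and in each other class and list up to 3 genes with the smallest adjusted p) and the pair compared as a ratio were chosen with earlier results of these data known. Genes named beyond that rule, and the other ratios, were named after their values were seen. Names and promoter windows come from RefSeq's GRCr8 tables; all 53 symbols matched.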

Additional observations from a re-analysis of the deposited data

How the results depend on the processing

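Counts of calls moved by less than 1.5 times under every alternative. With each library left out in turn, 15 to 17 members were called higher and 14 to 17 lower, of 5109 to 6254 genes called. The 6254 were called without siMt2 replicate 3, the library with the lowest total, against 5971 with all libraries. DESeq2 gave 16 higher and 15 lower of 4961, and upper quartile scaling 18 higher and 15 lower of 5980. Without a filter on low counts, 17 were called higher and 20 lower of 6276. The call held in all 13 alternatives for 27 of the 35 members called, and none of them changed sign; the other 8 are Eif3b, Eif3k, Eif3l, Eif2b1, Eif2s2, Eif4a3, Eif4b and Eif4ebp2. The difference in the log2 ratio of Eif3m to Eif3c ran from 1.34 to 1.41 with a library left out and was 1.38 with 1 count added to each gene.

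Sign changes occurred only among members that were not called: Eif1b (0.027 under upper quartile scaling), Eif4e (-0.010 without a filter and -0.014 in limma-voom), Eif4e2 (-0.0056 without a filter and -0.0023 with the replicate block) and Eif3h (-0.0025 with the block and -0.014 in DESeq2). With a library left out, values ran from -0.068 to 0.037 for Eif1b, -0.043 to 0.060 for Eif1ad, -0.088 to 0.070 for Eif2ak4, -0.25 to 0.18 for Eif3h, -0.072 to 0.062 for Eif4e, -0.073 to 0.059 for Eif4e2 and -0.0095 to 0.089 for Eif4g3. The cause was not tested.

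Same-numbered libraries did not deviate together (correlations across genes of -0.0010, -0.058 and 0.025, and 1 of 6 libraries correlated best with its own number). With 3 libraries per group, these values cannot tell whether same-numbered libraries shared a culture or a batch. With the replicate block, 17 members were called higher and 20 lower, Eif1ax and Eif4h being the added ones, of 5897 genes.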

Other observations

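The mitochondrial initiation factors, outside the name rule and named after their values were seen, were low in both groups. Mtif3 had 18.2, 18.7 and 21.8 CPM in siMt2 libraries, against 24.2, 27.7 and 25.6 CPM in siNT libraries (log2 fold change -0.42, SE 0.14, edgeR adjusted p = 0.0146). Mtif2 had 24.4, 17.7 and 21.8 CPM in siMt2 and 21.1, 23.9 and 16.7 CPM in siNT libraries and was not called (0.085, edgeR adjusted p = 0.690). The Argonaute genes, once named as eIF2C, gave Ago4 higher (1.07, SE 0.33, edgeR adjusted p = 0.0102, at 6.52 ± 2.296 CPM in siMt2 and 2.94 ± 0.531 CPM in siNT libraries; SD, n = 3 each) and Ago3 lower with overlapping groups (-0.31, SE 0.13, edgeR adjusted p = 0.0474). Ago1 and Ago2 were not called (0.0021 and 0.015).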
